A study of Mus musculus with 3 samples.

Results

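This account covers 10 genes of fibroblast growth factor (FGF) signalling in the neonatal mouse lung mesenchyme. They are the ligands Fgf2, Fgf7, Fgf9 and Fgf10, the receptors Fgfr1, Fgfr2, Fgfr3 and Fgfr4, and the Sprouty genes Spry1 and Spry2. They were chosen by name, as 10 of the 31730 genes in the deposited count tables, and each was followed across the deposited cell types and the sorted libraries. The pups carried the alleles Fgf18CreERT2/+, ROSATDTomato/+ and PdgfrαEGFP/+, so all libraries share heterozygosity for the 3 alleles and the tamoxifen given from postnatal day 2 to postnatal day 5. Lungs were dissociated at postnatal day 7 and sorted on GFP, driven from the Pdgfra locus, and on tdTomato, switched on by Cre from the Fgf18 locus. The GFP-high TdT-high library held 1511 cells, the GFP-high TdT-neg library 3347 cells and the GFP-low TdT-neg library 1284 cells, 6142 in all. Each gate is 1 library, and the labels do not say how many pups went into it. No difference therefore has a replicate check, no p-value is given, and every interval below is a 95% interval for counting error only.

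Most fibroblast growth factors are secreted ligands that bind tyrosine kinase receptors together with heparan sulphate and switch on the RAS and ERK cascade. In the developing lung, Fgf10 and Fgf7 come from the mesenchyme and act on the epithelium through an Fgfr2 isoform, while Fgf9 is known from the mesothelium and epithelium as a signal to the mesenchyme. Sprouty proteins are feedback inhibitors that are induced by receptor signalling and dampen the ERK cascade. Fgfr3 and Fgfr4 are known in mice for a shared part in alveolar formation after birth.

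Counts were unique molecular identifiers (UMIs) per gene, and levels are counts per 1000000 UMIs of the cells summed (CPM). The libraries held 34506226, 68692834 and 26586489 UMIs in the order given above, with medians of 22401, 19629 and 19799 UMIs a cell, and 4 cell barcodes occurred in more than 1 library. The deposited names MyoFB, MatFB, AdvFB and DivFB were checked against marker lists. A myofibroblast list of 12 genes summed to 9141 CPM in MyoFB cells and 984 CPM in MatFB cells, and a matrix fibroblast list of 12 genes to 789 CPM in MyoFB and 25160 CPM in MatFB. An adventitial list of 12 genes reached 15497 CPM in AdvFB cells, 3274.5 CPM in MatFB and 179 CPM in MyoFB. A proliferation list of 10 genes reached 2999 CPM in DivFB against 73.5 CPM in MyoFB. The myofibroblast list summed to 1581 CPM in AdvFB cells of GFP-high TdT-neg and 4324 CPM in those of GFP-low TdT-neg. Over the MyoFB types, tdTomato transcripts ranged from 47.0 to 79.0 CPM among GFP-high TdT-high cells and from 2.45 to 9.04 CPM among GFP-high TdT-neg cells. The gates held different cells: 1458 of 1511 GFP-high TdT-high cells and 2659 of 3347 GFP-high TdT-neg cells were MyoFB, while 1055 of 1284 GFP-low TdT-neg cells were MatFB. Crossing type with library gave 14 groups of at least 50 cells, with median depths between 16669 and 30940 UMIs a cell.

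Sequence upstream of the start is shown for 4 members. Fgf10, Fgfr3 and Fgfr4 are the members at least 2-fold lower in MyoFB than in MatFB cells, and Spry1 is the most abundant of those at least 2-fold higher in MyoFB. Each run is the 250 bases before the transcription start, read from RefSeq on GRCm38.p6, with matches to CANNTG, the E-box core, in capitals.
Fgf10, chr13:118714449-118714698, plus strand: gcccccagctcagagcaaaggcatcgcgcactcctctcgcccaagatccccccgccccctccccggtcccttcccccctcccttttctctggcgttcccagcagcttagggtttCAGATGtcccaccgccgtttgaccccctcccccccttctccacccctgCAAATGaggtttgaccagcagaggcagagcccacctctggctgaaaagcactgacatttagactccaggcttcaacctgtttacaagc
Fgfr3, chr5:33721474-33721723, plus strand: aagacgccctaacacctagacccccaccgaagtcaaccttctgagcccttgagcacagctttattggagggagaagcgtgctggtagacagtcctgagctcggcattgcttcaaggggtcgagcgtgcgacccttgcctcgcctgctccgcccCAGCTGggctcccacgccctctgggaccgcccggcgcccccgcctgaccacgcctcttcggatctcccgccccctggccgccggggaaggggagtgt
Fgfr4, chr13:55152568-55152817, plus strand: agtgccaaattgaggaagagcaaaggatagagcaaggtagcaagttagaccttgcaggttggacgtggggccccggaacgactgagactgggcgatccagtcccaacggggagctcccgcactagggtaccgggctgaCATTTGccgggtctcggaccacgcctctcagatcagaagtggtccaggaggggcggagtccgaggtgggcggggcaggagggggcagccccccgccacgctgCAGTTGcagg
Spry1, chr3:37639697-37639946, plus strand: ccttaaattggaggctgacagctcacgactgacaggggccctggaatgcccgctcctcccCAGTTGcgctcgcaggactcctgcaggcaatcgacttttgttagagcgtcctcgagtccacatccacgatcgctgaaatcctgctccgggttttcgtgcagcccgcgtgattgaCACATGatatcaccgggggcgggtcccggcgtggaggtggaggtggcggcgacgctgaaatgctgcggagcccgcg
The GC content was 61.2% for Fgf10, 66.8% for Fgfr3, 64% for Fgfr4 and 62.4% for Spry1, against a median of 52.4% over the promoters of the table. The Fgfr3 match was CAGCTG, an E-box form that overlaps the general one. Fgfr3 had another promoter entry, from chr5:33722056, with 0 matches to CANNTG or CAGCTG and a GC content of 72.8%. Over the 300-base windows of the table, both strands searched, CANNTG occurred in 66.22% of 32851 promoters and CAGCTG in 13%. The ETS core CGGAAG was in 13.59% of those promoters and in none of the windows of the 9 members that had an entry. These matches describe the letters of the windows.

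**Figure D1:**
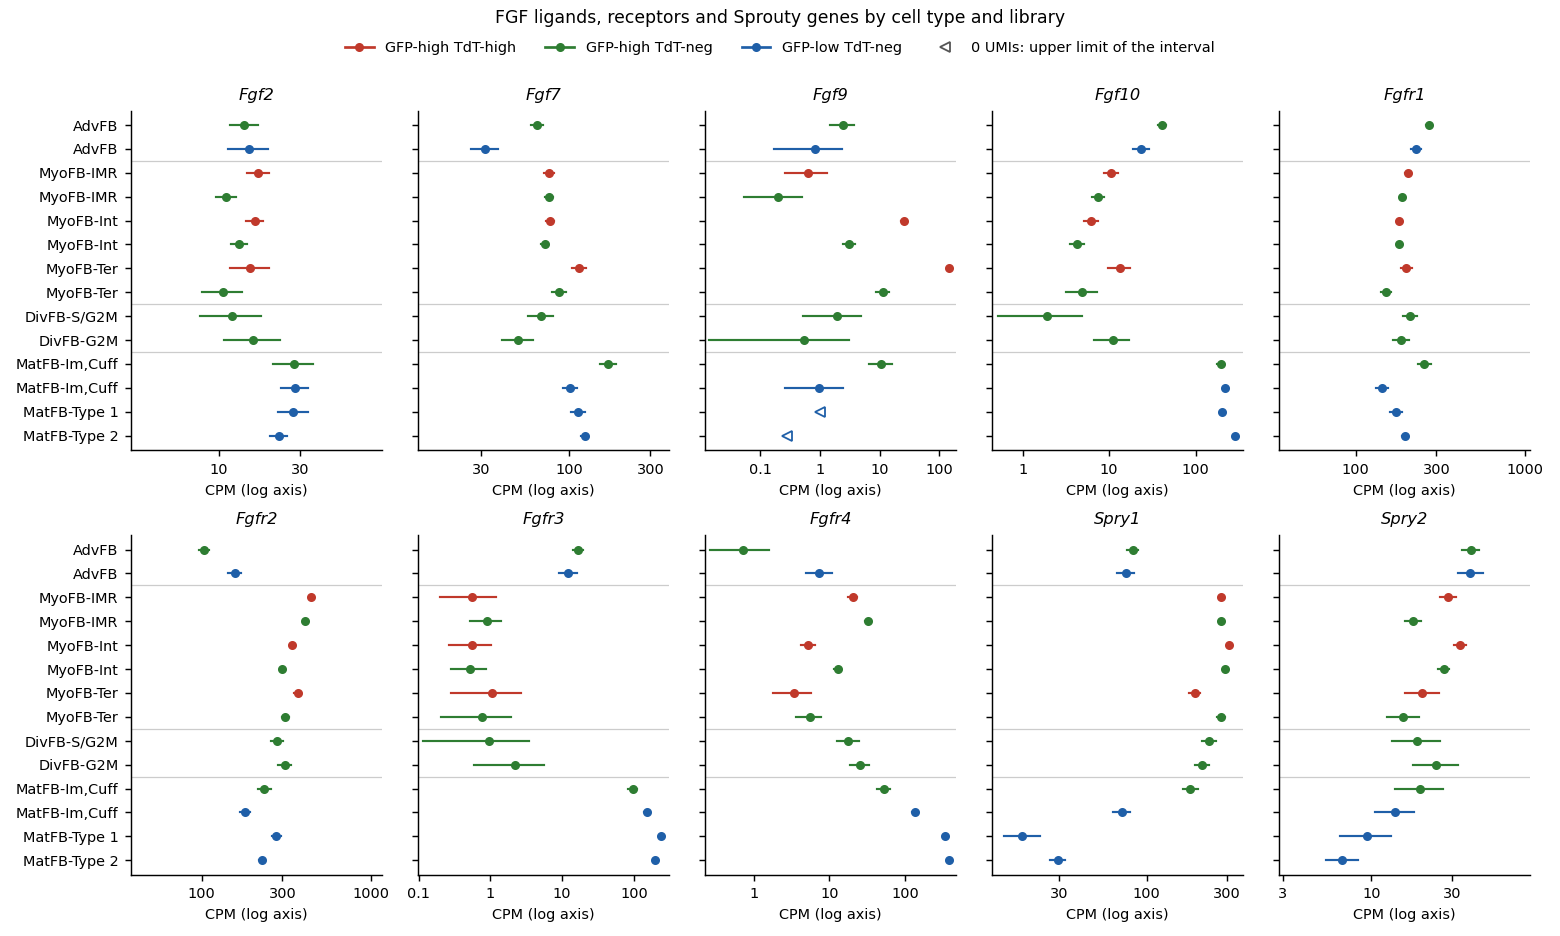
Level of each of the 10 genes, in CPM on a log axis, in the 14 combinations of deposited cell type and library that held at least 50 cells; bars are 95% counting intervals and open triangles mark 0 UMIs at the upper limit. Fgf10, Fgfr3 and Fgfr4 sit high in the MatFB rows, Spry1 in the MyoFB rows and Fgf9 in MyoFB-Ter, while Fgfr1 spans 144 to 271 CPM.

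The members differed in how far their levels ranged over the 14 groups. Fgfr1 had the narrowest span, with its highest group 1.88-fold above its lowest, followed by Fgf2 at 2.65-fold and Fgfr2 at 4.26-fold. Fgf7 spanned 5.30-fold, Spry2 5.73-fold, Spry1 16.8-fold, Fgf10 151-fold, Fgfr3 466-fold and Fgfr4 524-fold. For Fgf9 no span was computed, since its lowest level was 0 CPM. Comparing MyoFB with MatFB cells over all libraries, 6 of the 10 members were at least 2-fold apart, against 28.1% of 19299 genes with at least 50 UMIs. Of these, Fgf9, Spry1 and Spry2 were higher in MyoFB, and Fgf10, Fgfr3 and Fgfr4 were lower. The members' median log2 ratio was -0.35 and that of all genes 0.18. These types sat mostly in different gates: 66 of 4183 MyoFB and 1055 of 1232 MatFB cells were GFP-low TdT-neg. Inside GFP-high TdT-neg, MatFB-Im,Cuff and MyoFB cells, in that order, had Spry1 at 182 and 286 CPM and Fgfr4 at 52.2 and 19.4 CPM. Fgf10 stood at 196 and 5.58 CPM there, and Fgfr3 at 96.6 and 0.684 CPM. Fgf9 was 10.6 and 2.79 CPM, and Spry2 19.3 and 22 CPM. The part of the gate in the ratios was not tested.

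Fgf10, the mesenchymal signal for branching and for alveolar epithelial progenitors (chr13:118714699-118792573, plus strand), marked the MatFB cells. It stood at 6.67 CPM in MyoFB and 259 CPM in MatFB, a ratio of 0.0258 (0.0236 to 0.0280). Among the MatFB groups, MatFB-Type 2 had the highest level, 288 CPM, above MatFB-Im,Cuff at 222 CPM and MatFB-Type 1 at 205 CPM in the same GFP-low TdT-neg library. The last pair overlapped within counting error, as did MatFB-Im,Cuff of the GFP-high TdT-neg library at 196 CPM. AdvFB cells held an intermediate level of 41.3 CPM in the GFP-high TdT-neg and 23.6 CPM in the GFP-low TdT-neg library. The 6 MyoFB groups lay between 4.27 and 13.2 CPM. After each cell was thinned to 5000 UMIs, 2.41% of MyoFB cells of the GFP-high TdT-neg library and 59.4% of MatFB cells of the GFP-low TdT-neg library had an Fgf10 UMI, at median depths of 19005 and 19434 UMIs. Free RNA was gauged with Scgb1a1, a club cell gene, whose thinned share in that GFP-high TdT-neg library was 5.60% in MyoFB cells, 6.47% in MatFB cells and 8.23% in AdvFB cells. The Fgf10 share of MyoFB cells was lower than their Scgb1a1 share, and the Fgf10 share of AdvFB cells, 16.8%, was higher than theirs. Free RNA can differ between genes, so the Scgb1a1 share sets no cut for Fgf10. Whether the low MyoFB share reflects expression or free RNA was not tested. The ratio of Fgf10 to Fgfr3 UMIs in that library was 8.17 in MyoFB, 2.08 in MatFB and 2.47 in AdvFB cells.

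Fgf7, the keratinocyte growth factor (chr2:126034658-126091185, plus strand), was found in every group. Its level was 77.2 CPM in MyoFB and 122.9 CPM in MatFB cells, a ratio of 0.628 (0.602 to 0.656). The highest group was MatFB-Im,Cuff of the GFP-high TdT-neg library at 169 CPM, and the lowest was AdvFB of the GFP-low TdT-neg library at 31.8 CPM; both stood apart from their neighbours in the order. Dividing cells were also low, with 67.7 CPM in DivFB-S/G2M and 49.9 CPM in DivFB-G2M. Fgf2, an FGF stored in the extracellular matrix (chr3:37348477-37410106, plus strand), was 13.9 CPM in MyoFB and 25.1 CPM in MatFB, a ratio of 0.553 (0.501 to 0.610). The 4 MatFB groups led with 22.5 to 28.0 CPM, and the other 10 groups lay between 10.6 and 17.0 CPM, each overlapping the next. Fgf2 shares 5199 bases with the antisense gene Nudt6, and the labels do not say whether counting used strand, so reads of the pair cannot be told apart.

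Fgf9 (chr14:58070671-58112854, plus strand) was the 1 member ligand higher in MyoFB than in MatFB cells over all libraries. It stood at 14.0 CPM in MyoFB and 1.11 CPM in MatFB cells, a ratio of 12.6 (8.65 to 19.3). Within MyoFB its level was highest in MyoFB-Ter in both GFP-high libraries. MyoFB-Ter had 148 CPM in GFP-high TdT-high and 11.3 CPM in GFP-high TdT-neg cells. The UMIs numbered 570 in MyoFB-Ter and 464 in MyoFB-Int of GFP-high TdT-high. In GFP-high TdT-neg they numbered 60 in MyoFB-Ter and 83 in MyoFB-Int. MyoFB-Int had 25.4 CPM in GFP-high TdT-high and 3.08 CPM in GFP-high TdT-neg cells. MyoFB-IMR had 0.639 CPM in GFP-high TdT-high and 0.196 CPM in GFP-high TdT-neg cells, the lowest MyoFB groups. MatFB-Im,Cuff of the GFP-high TdT-neg library, at 10.6 CPM, overlapped MyoFB-Ter of the same library. No Fgf9 UMI was counted in the 199 MatFB-Type 1 and 651 MatFB-Type 2 cells of the GFP-low TdT-neg library. Mesothelial cells are a known source of Fgf9. A mesothelial list of 8 genes, of which Msln had no UMI in any library, summed to 1.62 CPM in GFP-high TdT-high, 2.999 CPM in GFP-high TdT-neg and 38.7 CPM in GFP-low TdT-neg cells. Over the MyoFB cells of the libraries it summed to between 1.63 and 2.68 CPM. Its highest sum was 102.9 CPM in MatFB-Type 1, of which Upk1b gave 100.7 CPM.

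**Figure D2:**
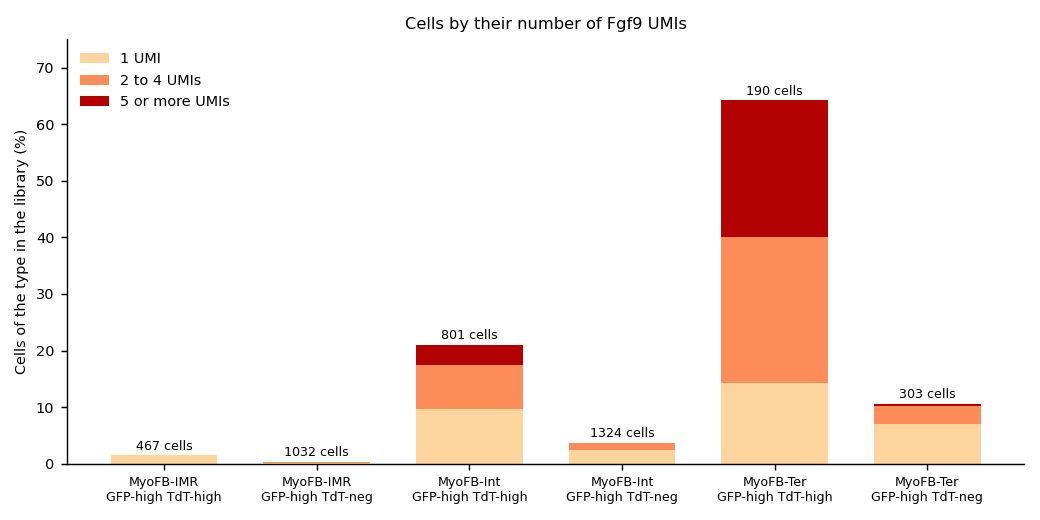
Share of cells with 1, 2 to 4, or at least 5 Fgf9 UMIs in each MyoFB type, for the GFP-high TdT-high and GFP-high TdT-neg libraries; bars stack to the share of cells with any Fgf9 UMI. In MyoFB-Ter the stack reaches 64.2% of GFP-high TdT-high cells and 10.6% of GFP-high TdT-neg cells.

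Cell by cell, Fgf9 was common in MyoFB-Ter of the tdTomato-labelled library. Of its 190 cells, 122 had a UMI, 46 had at least 5 and the highest had 20. Of the 303 MyoFB-Ter cells of the GFP-high TdT-neg library, 32 had a UMI, 1 had at least 5 and the highest had 9. The 19 cells with most Fgf9 UMIs carried 42.1% of those in the 190 cells. In MyoFB-Int of the GFP-high TdT-high library 168 of 801 cells had a UMI, and the 81 cells with most carried 79.3% of them. With 5000 UMIs a cell, the MyoFB-Ter share was 39.5% in GFP-high TdT-high and 3.30% in GFP-high TdT-neg cells, and the MyoFB-IMR share was 0% in both, with upper limits of 0.787% in GFP-high TdT-high and 0.357% in GFP-high TdT-neg. Median depths were 19853 UMIs in GFP-high TdT-high and 16669 UMIs in GFP-high TdT-neg MyoFB-Ter cells, and 23762 and 19461 UMIs in the MyoFB-IMR cells of those libraries. For Scgb1a1 the thinned MyoFB-Ter shares were 1.05% in GFP-high TdT-high and 4.29% in GFP-high TdT-neg cells.

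Of the receptors, Fgfr1 and Fgfr2 were present throughout. Fgfr1, which binds many FGFs through its mesenchymal isoform (chr8:25518759-25575718, plus strand), was 184 CPM in MyoFB and 187 CPM in MatFB cells, a ratio of 0.983 (0.951 to 1.02). AdvFB of the GFP-high TdT-neg library was highest at 271 CPM, followed by MatFB-Im,Cuff of that library at 255 CPM and AdvFB of the GFP-low TdT-neg library at 227 CPM. The lowest was MatFB-Im,Cuff of the GFP-low TdT-neg library at 144 CPM. Every pair of neighbours in the order of Fgfr1 levels overlapped within counting error. Fgfr2 (chr7:130162451-130266808, minus strand) was 356 CPM in MyoFB and 224 CPM in MatFB, a ratio of 1.59 (1.55 to 1.64). It led in MyoFB-IMR, with 443 CPM in GFP-high TdT-high and 410 CPM in GFP-high TdT-neg cells, and was lowest in AdvFB, with 104 CPM in the GFP-high TdT-neg and 157 CPM in the GFP-low TdT-neg library. The epithelial and mesenchymal isoforms of Fgfr2 cannot be told apart in these 3′ counts, and Epcam, an epithelial surface marker, stayed at or under 0.57 CPM.

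Fgfr3 and Fgfr4 were MatFB genes. Fgfr3 (chr5:33721724-33737068, plus strand) stood at 0.745 CPM in MyoFB and 185 CPM in MatFB cells, which is 248-fold lower (194 to 322). MatFB-Type 1 was highest at 242 CPM, then MatFB-Type 2 at 197 CPM, MatFB-Im,Cuff at 150 CPM in the GFP-low TdT-neg and 96.6 CPM in the GFP-high TdT-neg library, each apart from the next. AdvFB followed with 16.7 CPM in GFP-high TdT-neg and 12.2 CPM in GFP-low TdT-neg cells, and the MyoFB and DivFB groups lay between 0.519 and 2.19 CPM. Fgfr4 (chr13:55152818-55168759, plus strand) stood at 15.6 CPM in MyoFB and 292 CPM in MatFB, a ratio of 0.0535 (0.0505 to 0.0567). Its order differed from that of Fgfr3, with MatFB-Type 2 at 383 CPM above MatFB-Type 1 at 332 CPM. MatFB-Im,Cuff reached 134 CPM in the GFP-low TdT-neg and 52.2 CPM in the GFP-high TdT-neg library. Unlike Fgfr3, Fgfr4 was also counted in MyoFB-IMR, at 20.2 CPM in the GFP-high TdT-high and 31.8 CPM in the GFP-high TdT-neg library, and in DivFB-G2M at 25.2 CPM. AdvFB of the GFP-high TdT-neg library was the lowest group for Fgfr4, with 6 UMIs in 328 cells.

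**Figure D3:**
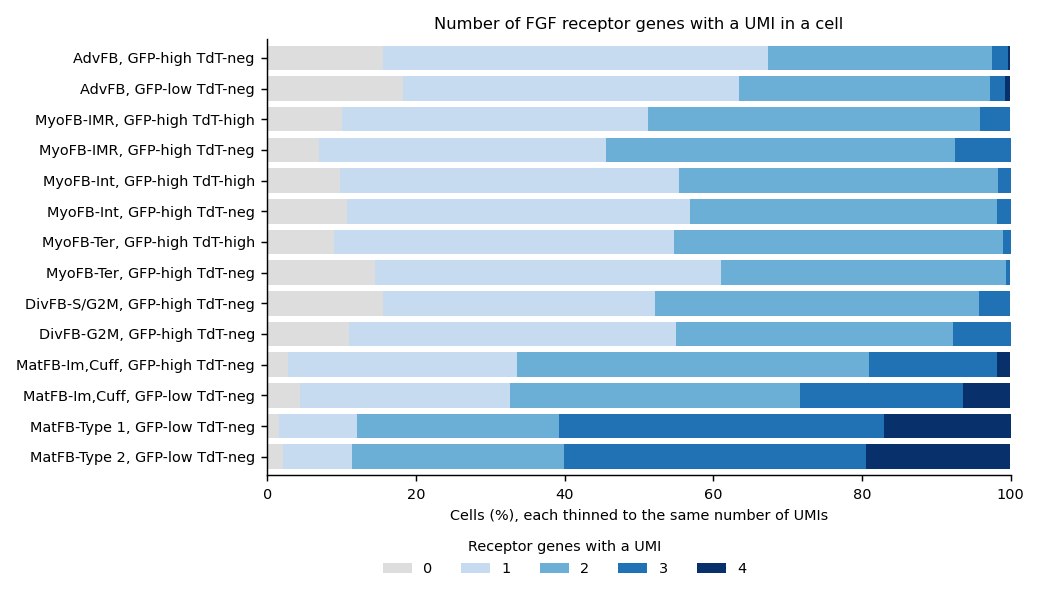
Share of cells by the number of FGF receptor genes (Fgfr1 to Fgfr4) with at least 1 UMI, after each cell was thinned to 5000 UMIs, for the 14 groups. The darkest segments, cells with all 4 receptors, reach 19.5% in MatFB-Type 2 and 17.1% in MatFB-Type 1 and are at 0% in the MyoFB rows.

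Counted per cell, the receptors overlapped most in MatFB. At 5000 UMIs a cell, 19.5% of MatFB-Type 2 cells had a UMI of all 4 receptor genes and a further 40.6% had 3. MatFB-Type 1 was close, with 17.1% and 43.7%. MatFB-Im,Cuff had 6.34% with all 4 in the GFP-low TdT-neg library and 1.82% in the GFP-high TdT-neg library. Among all 4183 MyoFB cells none had all 4 at that depth and 3.35% had 3. Without thinning, all 4 were found in 8 of the 4183 MyoFB cells, 0.191%, and in 781 of the 1055 MatFB cells of the GFP-low TdT-neg library, 74.0%.

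Spry1 ran opposite to Fgf10 and Fgfr3. This feedback inhibitor (chr3:37639947-37644599, plus strand) stood at 284 CPM in MyoFB and 49.8 CPM in MatFB, a ratio of 5.70 (5.38 to 6.04). The MyoFB groups lay between 193 and 307 CPM and the dividing cells at 235 and 213 CPM. AdvFB had 82.8 CPM in GFP-high TdT-neg and 75.2 CPM in GFP-low TdT-neg cells. MatFB-Im,Cuff of the GFP-high TdT-neg library reached 182 CPM, and in the GFP-low TdT-neg library MatFB-Im,Cuff had 70.9 CPM, MatFB-Type 2 29.7 CPM and MatFB-Type 1 18.3 CPM. At 5000 UMIs a cell, Spry1 was seen in 70.4% of MyoFB cells of the GFP-high TdT-neg library and 14.1% of MatFB cells of the GFP-low TdT-neg library. Spry2 (chr14:105891947-105896819, minus strand) had lower counts and a different order. It was 25.1 CPM in MyoFB and 9.87 CPM in MatFB, a ratio of 2.54 (2.23 to 2.92), but its highest groups were AdvFB, with 38.5 CPM in GFP-high TdT-neg and 38.3 CPM in GFP-low TdT-neg cells. Neighbouring Spry2 groups overlapped all along the order.

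AdvFB and MyoFB cells could be compared inside 1 library, GFP-high TdT-neg. There 5 of 10 members were at least 2-fold apart, against 30.4% of 17071 genes. Fgf10 was higher in AdvFB, 41.3 CPM against 5.58 CPM in MyoFB, a ratio of 7.39 (6.30 to 8.67), and so was Fgfr3, 16.7 CPM in AdvFB and 0.684 CPM in MyoFB, a ratio of 24.4 (16.8 to 36.3). Fgfr2 was lower, 104 CPM in AdvFB and 342 CPM in MyoFB, a ratio of 0.304 (0.283 to 0.325), as was Spry1 at 82.8 CPM in AdvFB and 286 CPM in MyoFB. Fgfr4 had 6 UMIs in AdvFB against 1023 in MyoFB, a ratio of 0.0376 (0.0138 to 0.0821). Fgfr1 and Spry2 were 1.50-fold and 1.75-fold higher in AdvFB.

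Taken as wholes, the gates were compared next. Between GFP-high TdT-neg and GFP-low TdT-neg libraries 4 of 10 members were at least 2-fold apart, against 23.4% of 18810 genes. Spry1 was 251 CPM in GFP-high TdT-neg and 52.1 CPM in GFP-low TdT-neg cells, a ratio of 4.81. Fgf10 was 21.3 CPM in GFP-high TdT-neg and 212 CPM in GFP-low TdT-neg cells. Fgfr3 was 8.23 CPM in GFP-high TdT-neg and 158 CPM in GFP-low TdT-neg cells, and Fgfr4 20.4 CPM in GFP-high TdT-neg and 261 CPM in GFP-low TdT-neg cells. MatFB cells were 170 of 3347 in GFP-high TdT-neg and 1055 of 1284 in GFP-low TdT-neg, and the part of this makeup in the ratios was not tested. Between the GFP-high TdT-high and GFP-high TdT-neg libraries 3 members were at least 2-fold apart, against 7.06% of 19025 genes. Fgf9 was higher, 30.2 CPM in GFP-high TdT-high and 2.82 CPM in GFP-high TdT-neg cells, a ratio of 10.7 (9.17 to 12.5). Fgf10 was lower, 9.82 CPM in GFP-high TdT-high against 21.3 CPM in GFP-high TdT-neg, and Fgfr3 was lower, 1.28 CPM in GFP-high TdT-high against 8.23 CPM in GFP-high TdT-neg. GFP-high TdT-high held 7 MatFB and 4 AdvFB cells. Of the 1462 Fgf10 UMIs of GFP-high TdT-neg, 800 were in MatFB and 339 in AdvFB cells. Of its 565 Fgfr3 UMIs, 385 were in MatFB and 137 in AdvFB cells. Inside the MyoFB types Fgf10 was higher in GFP-high TdT-high, with ratios of 1.41 in MyoFB-IMR, 1.45 in MyoFB-Int and 2.70 in MyoFB-Ter. Fgfr3 had under 50 UMIs in each of these types. The part of cell makeup in the whole-library ratios was not tested.

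**Figure D4:**
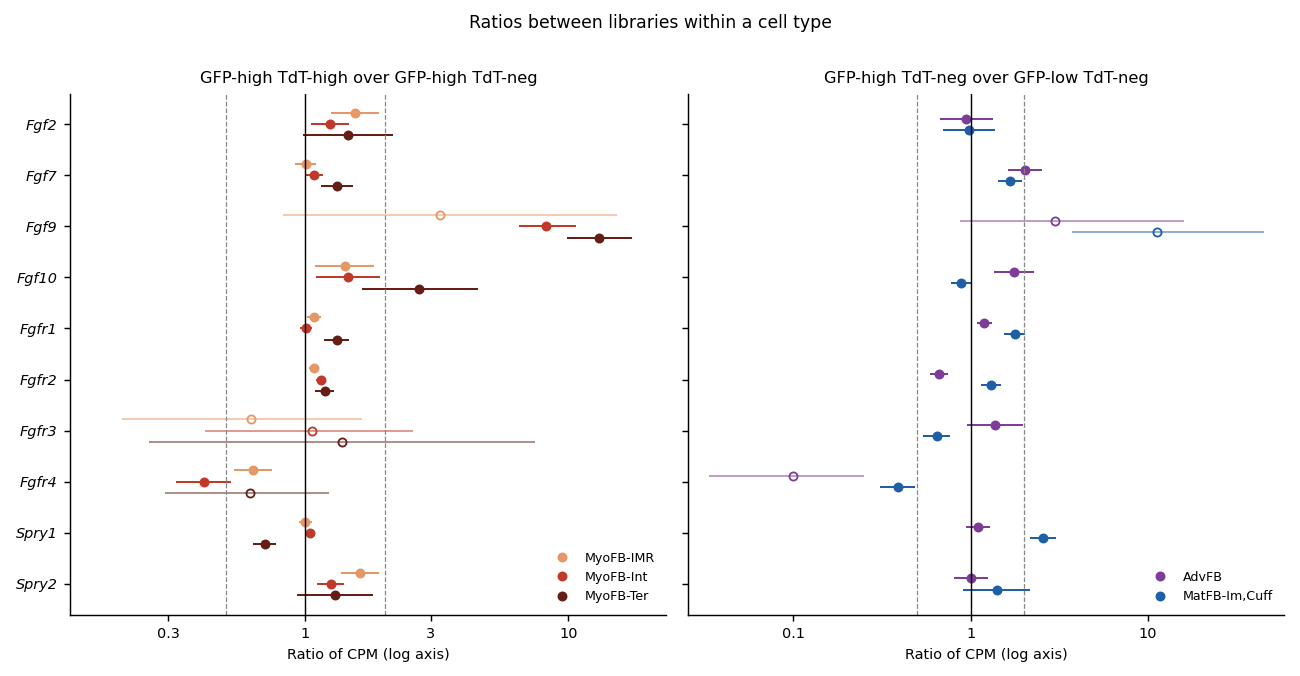
Ratio of each gene's CPM between gates inside 1 deposited cell type, on a log axis with 95% counting intervals: GFP-high TdT-high over GFP-high TdT-neg in the 3 MyoFB types (left), and GFP-high TdT-neg over GFP-low TdT-neg in AdvFB and MatFB-Im,Cuff (right). Open faded points rest on under 50 UMIs and dashed lines mark 2-fold. In the left panel Fgf9 lies farthest to the right, at 8.25 in MyoFB-Int and 13.1 in MyoFB-Ter.

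Comparing the tdTomato-labelled with the unlabelled gate inside each MyoFB type kept the deposited type name equal. It did not make the cells alike, as the Pdgfra and Hhip levels of MyoFB-Ter given below show. In MyoFB-IMR none of the 8 members measured (Fgf9 and Fgfr3 had under 50 UMIs) was 2-fold apart, against 1.95% of 15160 genes. The widest there were Spry2 with 28.3 CPM in GFP-high TdT-high and 17.6 CPM in GFP-high TdT-neg cells, Fgf2 with 17.0 CPM in GFP-high TdT-high and 11.0 CPM in GFP-high TdT-neg, and Fgfr4 with 20.2 CPM in GFP-high TdT-high and 31.8 CPM in GFP-high TdT-neg. In MyoFB-Int 2 of 9, without Fgfr3, were apart, against 3.79% of 15671 genes. Fgf9 had a ratio of 8.25 (6.52 to 10.6), and Fgfr4 was lower, 5.26 CPM in GFP-high TdT-high and 12.8 CPM in GFP-high TdT-neg, a ratio of 0.411 (0.324 to 0.517). Spry1 differed little in these types, at 277 CPM in both libraries in MyoFB-IMR and at 307 CPM in GFP-high TdT-high and 294 CPM in GFP-high TdT-neg in MyoFB-Int.

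In MyoFB-Ter 2 of 8 members, without Fgfr3 and Fgfr4, were apart, against 7.6% of 11018 genes. Fgf9 had a ratio of 13.1 (10.0 to 17.3). Fgf10 had 51 UMIs in GFP-high TdT-high and 26 in GFP-high TdT-neg, a ratio of 2.70 (1.65 to 4.51). The log2 ratio turned to -1.43 when only cells with Xist UMIs and no Y-linked UMI were kept. That subset held under 50 Fgf10 UMIs, below the minimum for a measured gene. The thinned Fgf10 shares were 6.32% (3.31 to 10.8) of GFP-high TdT-high and 1.65% (0.538 to 3.81) of GFP-high TdT-neg cells. Spry1 was lower, 193 CPM in GFP-high TdT-high and 276 CPM in GFP-high TdT-neg, a ratio of 0.699 (0.639 to 0.764), within 2-fold.

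The MyoFB-Ter cells of the 2 libraries also differed in other genes. Pdgfra stood at 24.6 CPM in GFP-high TdT-high and 209 CPM in GFP-high TdT-neg, and Hhip, a hedgehog-binding protein, at 1468 CPM in GFP-high TdT-high and 319 CPM in GFP-high TdT-neg. A Pdgfra UMI was found in 46 of 190 GFP-high TdT-high and 251 of 303 GFP-high TdT-neg cells. In a split by Pdgfra UMI, chosen after seeing the data, Fgf9 was 127 CPM in GFP-high TdT-high and 7.57 CPM in GFP-high TdT-neg among cells with one. Among cells without one it was 155 CPM in GFP-high TdT-high and 31.8 CPM in GFP-high TdT-neg. The part of Pdgfra and Hhip in the Fgf9 difference was not tested. In MyoFB-Int of the GFP-high TdT-high library Fgf9 was 78.8 CPM in the 90 cells without a Pdgfra UMI and 19.98 CPM in the 711 with one.

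**Figure D5:**
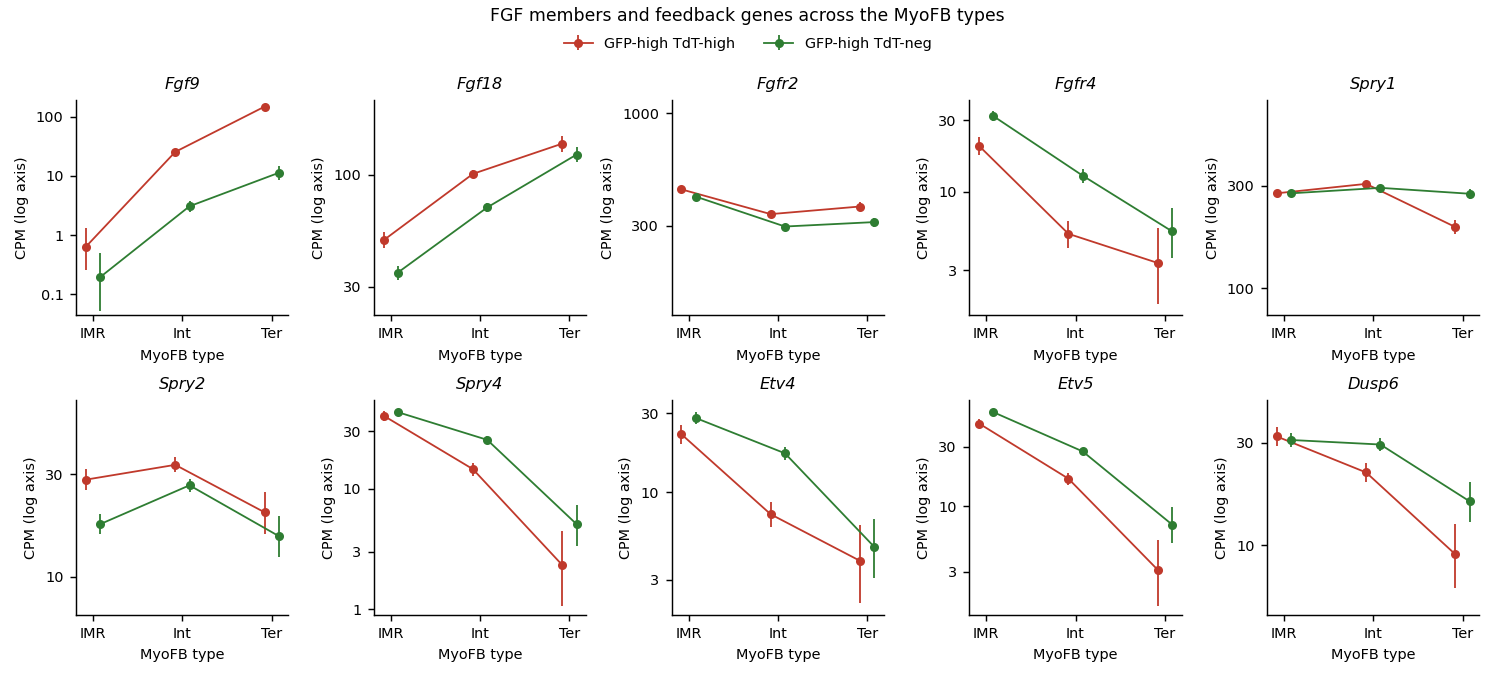
CPM with 95% counting intervals, on log axes, for selected members and FGF feedback genes across MyoFB-IMR, MyoFB-Int and MyoFB-Ter in the GFP-high TdT-high and GFP-high TdT-neg libraries. Fgf9 and Fgf18 climb across the 3 types in both libraries, Fgfr4, Spry4, Etv4, Etv5 and Dusp6 decline, and Spry1 and Fgfr2 vary within 2-fold.

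Across the MyoFB types Fgf9 and Fgf18 were higher in MyoFB-Ter, while Fgfr4 and several ERK feedback genes were lower. Comparing MyoFB-Ter with MyoFB-IMR, 2 of 9 members measured (without Fgfr3) were at least 2-fold apart in each library, against 17.1% of 12923 genes in GFP-high TdT-high and 12.5% of 14312 genes in GFP-high TdT-neg. The 2 were the same, Fgf9 higher and Fgfr4 lower. In GFP-high TdT-high, Fgf9 had 570 UMIs in MyoFB-Ter and 7 in MyoFB-IMR, a ratio of 231 (111 to 577). In GFP-high TdT-neg it had 60 UMIs in MyoFB-Ter and 4 in MyoFB-IMR, a ratio of 57.6 (21.4 to 218). Fgfr4 moved the other way by similar ratios in both libraries. It had 3.37 CPM in MyoFB-Ter and 20.2 CPM in MyoFB-IMR of GFP-high TdT-high, a ratio of 0.167 (0.0874 to 0.291). In GFP-high TdT-neg it had 5.46 CPM in MyoFB-Ter and 31.8 CPM in MyoFB-IMR, a ratio of 0.172 (0.114 to 0.249). Fgf18, whose locus drives the Cre, was 49.5, 101 and 140 CPM in MyoFB-IMR, MyoFB-Int and MyoFB-Ter of GFP-high TdT-high, and 35.0, 70.4 and 124 CPM in those of GFP-high TdT-neg. The Sprouty members did not follow Fgf9: Spry1 had a MyoFB-Ter over MyoFB-IMR ratio of 0.696 in GFP-high TdT-high and 0.995 in GFP-high TdT-neg, and Spry2 0.704 in GFP-high TdT-high and 0.879 in GFP-high TdT-neg.

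Spry4 and the ETS genes, which are transcribed in response to ERK activity, declined across those types. Spry4 was 40.3, 14.5 and 2.33 CPM in MyoFB-IMR, MyoFB-Int and MyoFB-Ter of GFP-high TdT-high, and 43.1, 25.4 and 5.09 CPM in those of GFP-high TdT-neg. Etv5 was 45.9, 16.7 and 3.11 CPM in those types of GFP-high TdT-high, and 56.6, 27.5 and 7.16 CPM in those of GFP-high TdT-neg. Etv4 had MyoFB-Ter over MyoFB-IMR ratios of 0.174 in GFP-high TdT-high and 0.168 in GFP-high TdT-neg, and Dusp6, an ERK phosphatase, 0.282 in GFP-high TdT-high and 0.517 in GFP-high TdT-neg. The inhibitors Spred1 and Spred2 stayed within 2-fold, with ratios between 0.568 and 0.709. Spred3 of the same family was higher in MyoFB-Ter of GFP-high TdT-high, a ratio of 2.835 (1.67 to 4.82) from 31 UMIs in each type. Over a list of ERK feedback and target genes in GFP-high TdT-high, 9 of 17 measured were lower and 2 higher, with a median log2 ratio of -1.34, against 11.2% lower, 5.94% higher and a median of -0.12 over all genes. In GFP-high TdT-neg 8 of 18 were lower and 1 higher, with a median of -0.95, against 8.87% lower, 3.67% higher and a median of -0.06. A list of other FGF genes also holds Fgf12 and Fgf13, which are intracellular and not secreted ligands. Of these FGF genes 1 of 6 was higher and 3 lower in GFP-high TdT-high, and 1 of 8 higher and 4 lower in GFP-high TdT-neg. Fgf1 was among the lower ones, with 3 UMIs in MyoFB-Ter and 157 in MyoFB-IMR of GFP-high TdT-high, and 5 UMIs in MyoFB-Ter and 261 in MyoFB-IMR of GFP-high TdT-neg. Fos, an immediate early gene, went the other way in GFP-high TdT-neg, 599 CPM in MyoFB-Ter and 266 CPM in MyoFB-IMR.

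Against MatFB, the same list was higher in MyoFB for 9 of 19 genes and lower for 2, with a median log2 ratio of 0.97, against 17.6% higher, 10.5% lower and a median of 0.18 over all genes. Etv4 was 16.7 CPM in MyoFB and 2.01 CPM in MatFB, and Etv5 31.8 CPM in MyoFB and 14.7 CPM in MatFB. Spry4 was 26.6 CPM in MyoFB and 28.2 CPM in MatFB, and Dusp6 26.7 CPM in MyoFB and 51.8 CPM in MatFB. None of the 21 intracellular adaptor genes measured was 2-fold apart. Among co-receptors 5 of 16 were higher and 3 lower, and among heparan sulphate modifying genes 3 of 14 were higher and 3 lower, beside those same shares of 17.6% higher and 10.5% lower over all genes. The glypican Gpc4 was 335 CPM in MyoFB and 12.2 CPM in MatFB, and the glypican Gpc3 13.4 CPM in MyoFB and 953 CPM in MatFB. Of the other FGF genes, with the intracellular Fgf13 among the lower ones, 3 of 11 were higher and 3 lower. The highest ratio was that of Fgf18, at 72.0 CPM in MyoFB and 1.56 CPM in MatFB. Hs3st1, a heparan sulphate sulphotransferase, was 44.8-fold higher in MyoFB, and Fgf13 and Hs6st2 had ratios of 0.0744 and 0.0266. In AdvFB against MyoFB of GFP-high TdT-neg, 13 of 79 list genes were higher and 19 lower, against 10.1% higher and 20.3% lower over all genes. Gpc3, Hs6st2 and Cdh2 had the highest ratios, at 146, 66.5 and 21.0, and Fgf18, Gpc4 and Etv1 the lowest, at 0.0529, 0.0587 and 0.0611. Etv4 and Etv5 were lower there too, with ratios of 0.0666 and 0.265.

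In the labelled against the unlabelled gate, more list genes were lower than higher. Over all cells 8 of 82 were lower and 0 higher in GFP-high TdT-high, against 4.25% lower and 2.81% higher over all genes, led by Gpc3 at 13.5 CPM in GFP-high TdT-high and 377 CPM in GFP-high TdT-neg. Of the 25893 Gpc3 UMIs of GFP-high TdT-neg, 20272 were in AdvFB cells, a type nearly absent from GFP-high TdT-high. The part of cell makeup in these whole-library counts was not tested. Inside MyoFB-IMR 1 of 74 was lower and 0 higher, against 0.574% lower and 1.37% higher over all genes. This was Gpc3, at 9.68 CPM in GFP-high TdT-high and 20.6 CPM in GFP-high TdT-neg. Inside MyoFB-Int 4 of 72 were lower and 0 higher, against 1.46% lower and 2.33% higher over all genes. Among them were Etv4 at 7.39 CPM in GFP-high TdT-high and 17.2 CPM in GFP-high TdT-neg and Ccnd1, a cyclin, at 10.0 CPM in GFP-high TdT-high and 36.2 CPM in GFP-high TdT-neg. Spry4 was 14.5 CPM in GFP-high TdT-high and 25.4 CPM in GFP-high TdT-neg there, within 2-fold. Inside MyoFB-Ter 6 of 60 were lower and 2 higher, against 3.49% lower and 4.1% higher over all genes. Etv1 was 37.8 CPM in GFP-high TdT-high and 171 CPM in GFP-high TdT-neg, and the glypican Gpc6 128 CPM in GFP-high TdT-high and 36.2 CPM in GFP-high TdT-neg. Etv5 had 12 UMIs in GFP-high TdT-high and 38 in GFP-high TdT-neg there.

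AdvFB and MatFB-Im,Cuff were the types with at least 50 cells in both the GFP-high TdT-neg and GFP-low TdT-neg libraries. In MatFB-Im,Cuff 2 of 9 members, without Fgf9, were apart, against 12.6% of 9841 genes. Spry1 was higher, 182 CPM in GFP-high TdT-neg and 70.9 CPM in GFP-low TdT-neg, a ratio of 2.57 (2.20 to 2.999), and Fgfr4 lower, 52.2 CPM in GFP-high TdT-neg and 134 CPM in GFP-low TdT-neg, a ratio of 0.388 (0.313 to 0.477). Fgf9 had 22 UMIs in 13 of 110 GFP-high TdT-neg cells and 4 UMIs in 3 of 205 GFP-low TdT-neg cells. Its thinned share was 4.55% (1.49 to 10.3) in GFP-high TdT-neg, where the Scgb1a1 share was 6.36% in the same cells and the Fgf9 share of MyoFB-IMR was 0%. Marker sums moved with the gate inside MatFB-Im,Cuff. The MatFB list of 12 genes summed to 6723 CPM in GFP-high TdT-neg and 19012 CPM in GFP-low TdT-neg, with 9 genes at or above 10 CPM in GFP-high TdT-neg and 12 in GFP-low TdT-neg. The AdvFB list summed to 5215 CPM in GFP-high TdT-neg and 3530 CPM in GFP-low TdT-neg, and the MyoFB list to 2156 CPM in GFP-high TdT-neg and 1046 CPM in GFP-low TdT-neg. The part of these shifts in the Spry1, Fgfr4 and Fgf9 values was not tested. Of the pathway lists 10 of 56 genes were higher and 3 lower, against 7.5% higher and 5.08% lower over all genes, the sulphatases Sulf2 and Sulf1 leading with ratios of 4.93 and 4.63, and Fgf12 lowest with 1 UMI in GFP-high TdT-neg against 158 in GFP-low TdT-neg.

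In AdvFB 1 of 8 members, without Fgf9 and Fgfr4, was apart, against 8.93% of 11616 genes. This was Fgf7, 64.4 CPM in GFP-high TdT-neg and 31.8 CPM in GFP-low TdT-neg, a ratio of 2.03 (1.66 to 2.50). Fgf10 was 41.3 CPM in GFP-high TdT-neg and 23.6 CPM in GFP-low TdT-neg, a ratio of 1.75 (1.38 to 2.24), and Fgfr2 104 CPM in GFP-high TdT-neg and 157 CPM in GFP-low TdT-neg, a ratio of 0.664 (0.597 to 0.740). Smooth muscle genes moved with the gate in these cells: a list of 10 summed to 263 CPM in GFP-high TdT-neg and 4056 CPM in GFP-low TdT-neg AdvFB cells, with 5 genes at or above 10 CPM in GFP-high TdT-neg, 10 in GFP-low TdT-neg and none at 0. Keeping cells with no Myh11, Actg2 or Des UMI left 240 GFP-high TdT-neg and 85 GFP-low TdT-neg cells. There Fgf7 was 62.1 CPM in GFP-high TdT-neg and 39.4 CPM in GFP-low TdT-neg, Fgf10 37.1 CPM in GFP-high TdT-neg and 30.1 CPM in GFP-low TdT-neg, and Fgfr2 97.4 CPM in GFP-high TdT-neg and 117 CPM in GFP-low TdT-neg. In that subset, chosen after seeing the data, no member was 2-fold apart. Of the pathway lists 2 of 64 genes were higher and 7 lower, against 4.1% higher and 4.83% lower over all genes, among them Ncam1 at 13.8 CPM in GFP-high TdT-neg and 149 CPM in GFP-low TdT-neg.

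Within the GFP-low TdT-neg library, MatFB-Im,Cuff was set against MatFB-Type 2, and 3 of 9 members, without Fgf9, were apart, against 8.72% of 12679 genes. Spry1 was 70.9 CPM in MatFB-Im,Cuff and 29.7 CPM in MatFB-Type 2, a ratio of 2.39 (2.05 to 2.78). Spry2 had 58 UMIs in MatFB-Im,Cuff and 88 in MatFB-Type 2, a ratio of 2.05 (1.44 to 2.89), which fell under 2-fold with thinned cells. Fgfr4 was 134 CPM in MatFB-Im,Cuff and 383 CPM in MatFB-Type 2, a ratio of 0.351 (0.322 to 0.383). Fgf10, Fgfr1, Fgfr2 and Fgfr3 had ratios between 0.735 and 0.798. Of the pathway lists 7 of 65 genes were higher and 5 lower, against 3.89% higher and 4.83% lower over all genes, with Sulf1 16.02-fold, Sulf2 12.7-fold and Fos 10.3-fold higher, and Fgf12 and Dusp4 lower at ratios of 0.286 and 0.348.

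Likeness of pattern was measured as Pearson's r of log2(CPM + 1) over the 14 groups, which share libraries and depth, among 5627 genes reaching 50 CPM in a group. Fgfr3 was most like Mme, Amph and Cd40, with r of 0.996, 0.993 and 0.992. Fgf10 was most like Tmem150c, Enpep and Kcna2 (0.987, 0.981 and 0.981), Spry1 like Enc1, Tox and Dock5 (0.979, 0.975 and 0.970), and Fgfr4 like Cnn2, Eml4 and Map3k20 (0.966, 0.954 and 0.949). Fgfr2 was nearest to Tanc1, Ttc39b and Rnf214 (0.949, 0.944 and 0.941), and Fgf9 to Wnt9a, Hmcn1 and Smad1 (0.901, 0.884 and 0.880). Fgf2 was nearest to Cerk, Gpam and Kcna2 (0.907, 0.895 and 0.891), Spry2 to Itga5, Cd200 and Medag (0.907, 0.902 and 0.896), Fgf7 to Slc6a6, Rev1 and Tbc1d12 (0.865, 0.855 and 0.847), and Fgfr1 to C2cd2, Tmem131 and Dlk1 (0.813, 0.803 and 0.801). Between members, Fgf10 and Fgfr3 had r of 0.969, Fgf10 and Spry1 -0.808, and Fgfr3 and Spry1 -0.870. Fgf9 and Spry1 had r of 0.449.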

How the data were processed

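Single cells of 3 sorted gates, 1 library each, were profiled with 10x Genomics 3′ chemistry. The authors deposited UMI counts per gene and cell with a table of cell type names; Cell Ranger 7.0.0 and mm10 are named in the submitters' processing notes. The deposited count tables hold 31730 genes and 6142 cells with 2504 to 7499 genes each and at most 19.34% mitochondrial counts. The mitochondrial percent of each cell was computed from the deposited counts. The deposited tables were used without further cell filters, no doublet caller was run, and the labels do not say how doublets were treated before deposit. A further sorted population (tdTomato-positive, GFP-negative) was not analysed here.

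Counts were summed per cell type and library and divided by the UMIs of all genes in those cells, per 1000000. Ratios carry exact conditional binomial intervals, levels exact Poisson intervals and shares exact Clopper-Pearson intervals, all at 95% and for counting error only. Where a side of a ratio had no UMI, that side was set at 3 counts as a bound. Those 3 counts are 0.0869 CPM over the whole GFP-high TdT-high library, 0.0437 CPM in GFP-high TdT-neg and 0.113 CPM in GFP-low TdT-neg. Upper limits of levels and shares with no UMI came from the exact intervals. A gene was measured in a comparison when both sides together held at least 50 UMIs, and apart when its CPM differed at least 2-fold. Of the 93 pathway genes listed 88 are in the tables. Always named were the 10 members and Etv4, Etv5, Dusp6, Spry4, Spred1 and Spred2 where measured. The 3 highest and 3 lowest list ratios of a comparison, and 3 like genes per member reaching 5 CPM, could also be named. The members and lists were chosen with earlier results of these data known. Alternatives covered scaling (TMM of edgeR 4.0.16, size factors of DESeq2 1.42.0, R 4.3.3), thinning, other minimums and folds, and subsets of cells. Sums and intervals used Python 3.11.15, numpy 2.4.6, pandas 2.3.3 and scipy 1.17.1, figures used matplotlib 3.10.9, and the code was tested on simulated data.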

Additional observations from a re-analysis of the deposited data

Results flagged for a closer look

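Fgf10, Fgfr2 and Spry1 went in opposite directions in 2 cell types under the same contrast, and these differences between types were not tested, since each gate is 1 library. Between GFP-high TdT-neg and GFP-low TdT-neg, Fgf10 had a log2 ratio of 0.80 in AdvFB and -0.18 in MatFB-Im,Cuff. Under that contrast Fgfr2 had a log2 ratio of -0.59 in AdvFB and 0.38 in MatFB-Im,Cuff. A subset of AdvFB cells with no Myh11, Actg2 or Des UMI was chosen after seeing the data. In that subset the counting intervals of the gates overlapped for Fgf10 and for Fgfr2. Between GFP-high TdT-high and GFP-high TdT-neg, Spry1 had a log2 ratio of 0.062 in MyoFB-Int and -0.52 in MyoFB-Ter.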

How the results depend on the processing

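No paired analysis was possible because each gate has 1 library. Of 140 recomputed counts of members at least 2-fold apart, 120 stayed within 1.5 times the main count and 20 moved; of 946 recomputed member ratios 775 stayed inside the counting interval of the main ratio, 170 left it, and 1 reversed. Counts below are of the members measured, with the share of all measured genes in brackets. Asking for 1.5-fold gave 7 of 10 for GFP-high TdT-neg over GFP-low TdT-neg in all cells (40.5%). It gave 5 of 9 in MatFB-Im,Cuff (29%) and 3 of 8 in AdvFB (20.5%). For GFP-high TdT-high (the labelled gate) over GFP-high TdT-neg in MyoFB-IMR it gave 3 of 8 (9.18%). Thinning to 5000 UMIs left 1 of 7 for MyoFB-Ter over MyoFB-IMR in GFP-high TdT-high (13.2%) and 1 of 7 in GFP-high TdT-neg (9.4%). It left 1 of 9 for the labelled gate in MyoFB-Int (3.07%), 1 of 5 in MyoFB-Ter (7.05%) and 0 of 6 in AdvFB (7.87%). Fewer members were measured where genes fell under the minimum. A minimum of 200 UMIs left 1 of 7 for MyoFB-Ter over MyoFB-IMR in GFP-high TdT-neg (7.81%) and 1 of 5 for the labelled gate in MyoFB-Ter (5.28%). A minimum of 20 gave 3 of 10 in AdvFB (12.8%). Keeping cells with Y-linked UMIs gave 1 of 8 for MyoFB-Ter over MyoFB-IMR in GFP-high TdT-neg (11%) and 2 of 8 in AdvFB (8.46%). Cells with Xist UMIs gave 1 of 5 for the labelled gate in MyoFB-Ter (7.15%). AdvFB had 0 of 8 with at most 5% mitochondrial UMIs (8.82%) and 0 of 8 with totals free of mitochondrial, ribosomal and haemoglobin genes (8.93%). The next subsets were chosen after seeing the data. Cells with a Pdgfra UMI gave 1 of 8 for MyoFB-Ter over MyoFB-IMR in GFP-high TdT-neg (12.1%) and 1 of 7 for the labelled gate in MyoFB-Ter (8.54%). AdvFB cells without a Myh11, Actg2 or Des UMI gave 0 of 8 (4.96%). Fgf10 in MyoFB-Ter, GFP-high TdT-high over GFP-high TdT-neg, had a log2 ratio of 1.43 that became -1.43 in cells with Xist UMIs only. Fgf10 held under 50 UMIs there, below the minimum, and the cause was not tested.

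Fgfr4 of MyoFB-Int (log2 -0.999 when thinned), Fgf7 of AdvFB (0.66 to 1.38) and Spry2 of MatFB-Im,Cuff over MatFB-Type 2 (0.77 to 1.09) crossed the 2-fold line under some settings, and, apart from the Fgf10 reversal, the other members called 2-fold apart stayed past it wherever a ratio was computed. TMM scaling moved the median log2 ratio of all genes between GFP-high TdT-neg and GFP-low TdT-neg to 0.06 from 0.16. Taking AdvFB cells from the deposited cluster with most of them could not be run, because the cluster column repeats the library. With 1 library a gate, differences between pups, sorting and library preparation cannot be told apart from the gates.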

Other observations

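The GFP-low TdT-neg library held 66 MyoFB cells (21 MyoFB-IMR, 22 MyoFB-Int and 23 MyoFB-Ter), too few to give levels by subtype. Together they had Fgf9 at 20.8 CPM, from 31 UMIs in 11 cells, with 22 of the UMIs in MyoFB-Int. Spry1 stood at 213 CPM and Fgfr2 at 406 CPM in these cells, and Fgf10, Fgfr3 and Fgfr4 at 5.36, 6.03 and 5.36 CPM, each from under 10 UMIs. In the 23 MyoFB-Ter cells Hhip was 3097 CPM and Pdgfra had 1 UMI.

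The GFP-high TdT-neg library held 44 MatFB-Type 2 cells, with 334 Fgf10 UMIs, 133 Fgfr3 UMIs and 129 Fgfr4 UMIs.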
